A study of Drosophila melanogaster with 54 samples.

Results

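The Sex combs reduced (Scr) and Antennapedia (Antp) sets are the genomic regions bound by these 2 Hox proteins when each was expressed without Homothorax (Hth). They were taken by the group name that each deposited region carries, and together they hold 10845 of the 116680 regions listed for the 18 ChIP groups at a q value of 0.01, 7338 for Scr and 3507 for Antp. The series profiled all 8 Drosophila Hox proteins, with and without Hth, together with Hth alone and Exd with Hth, by chromatin immunoprecipitation and sequencing (ChIP-seq) in Kc167 cells, an embryonic line with haemocyte-like features. Cells of the Scr group carried the plasmid pMT-eGFP-Scr and those of the Antp group pMT-eGFP-Antp, both introduced transiently. Expression from the copper-inducible metallothionein promoter was driven in both groups by 1 mM CuSO4 for 4 h, after which cells were fixed in 1% formaldehyde for 10 min, sorted for 1 common range of GFP fluorescence and processed with an antibody against GFP. Per the study, Kc167 cells lack Hth, and Exd, which needs Hth to enter the nucleus, stays in the cytoplasm. These are therefore profiles of the 2 GFP fusion proteins without nuclear cofactors. Each group has 2 ChIP libraries and 1 input library, but the list of a group is 1 combined set that holds no heights, read counts or replicate values. No test between Scr and Antp was therefore possible. Shares are given with 95% Wilson intervals that cover only the counting of regions, and the lists carry no depth. The mapped reads that the study gives are similar for the ChIP libraries of both groups, but no measure of enrichment was used here, so more binding and better enriched libraries cannot be told apart.

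Scr and Antp are the products of neighbouring genes of the Antennapedia complex. Scr directs the identity of the labial and first thoracic segments, and is known for the embryonic salivary gland and for the sex comb on the male foreleg. Antp directs thoracic identity and is known for the transformation of antenna to leg when it is expressed in the head. Their homeodomains are very similar and recognise the same short cores on naked DNA. The plasmid labels could not be checked from the lists, because regions over exons that are carried on the plasmids were removed by the authors, and both lists hold 0 regions over the exons of Scr and of Antp. The haemocyte-like character of the cells cannot be checked from lists of binding.

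The regions fall into 3 classes by an overlap of at least 1 bp: shared, Scr-only and Antp-only. Because the Antp list shrinks steeply with the threshold, a stricter class is also given, the firm Scr-only regions, which are Scr regions at q 1e-10 with no Antp region even at q 0.01. To let the classes be compared base by base, the 200 bp at the centre are shown for regions shared at q 1e-10, firm Scr-only regions and Antp-only regions. Shown are the 3 longest of each whose window lies wholly in introns or between genes, with 1 arm left out, so some longer regions are not shown. Sequences are from the plus strand of genome Release 6 (dm6). Capitals mark matches to HoxA (TTAAT, then T or G, then A), HoxB (TTTAT, then T or G, then A or G) and Exd-Hox (TGATT, then any base but C, then AT) on either strand. Matches of Exd-Hox can overlap those of HoxA or HoxB, and the same bases can match HoxA on both strands or in overlapping frames. Over all 200 bp windows of the 6 chromosome arms, 12.3% hold HoxA, 25.3% hold HoxB and 4.65% hold Exd-Hox.
shared at q 1e-10, intron of kirre, chrX:3059084-3059283: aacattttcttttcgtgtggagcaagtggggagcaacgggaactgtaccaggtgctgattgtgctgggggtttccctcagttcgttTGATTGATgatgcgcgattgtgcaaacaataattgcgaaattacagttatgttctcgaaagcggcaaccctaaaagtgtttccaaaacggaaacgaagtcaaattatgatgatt
shared at q 1e-10, intron of NK7.1, chr3R:14370330-14370529: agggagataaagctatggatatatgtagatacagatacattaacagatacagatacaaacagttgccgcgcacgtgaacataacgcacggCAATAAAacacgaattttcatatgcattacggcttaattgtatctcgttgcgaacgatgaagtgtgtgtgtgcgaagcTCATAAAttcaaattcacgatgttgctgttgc
shared at q 1e-10, intron of NFAT, chrX:13640878-13641077: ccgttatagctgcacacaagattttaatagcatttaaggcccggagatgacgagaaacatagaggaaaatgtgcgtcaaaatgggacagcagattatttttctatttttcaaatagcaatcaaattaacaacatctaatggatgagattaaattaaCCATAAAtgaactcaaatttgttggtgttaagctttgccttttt
firm Scr-only, intron of CG8034, chrX:19291415-19291614: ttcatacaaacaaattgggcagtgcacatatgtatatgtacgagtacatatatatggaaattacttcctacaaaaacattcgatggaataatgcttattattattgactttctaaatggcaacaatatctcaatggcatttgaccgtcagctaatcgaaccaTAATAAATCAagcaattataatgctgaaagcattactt
firm Scr-only, near the start of RhoL, chr3R:9503193-9503392: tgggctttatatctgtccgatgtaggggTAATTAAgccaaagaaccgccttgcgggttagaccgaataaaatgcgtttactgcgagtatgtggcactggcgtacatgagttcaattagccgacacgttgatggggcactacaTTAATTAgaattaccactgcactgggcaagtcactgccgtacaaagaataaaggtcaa
firm Scr-only, intron of CG31689, chr2L:2734394-2734593: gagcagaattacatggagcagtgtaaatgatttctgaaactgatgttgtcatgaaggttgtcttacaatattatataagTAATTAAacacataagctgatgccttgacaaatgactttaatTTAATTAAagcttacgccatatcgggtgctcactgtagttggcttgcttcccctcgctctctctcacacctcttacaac
Antp-only, intron of gpp, chr3R:6433477-6433676: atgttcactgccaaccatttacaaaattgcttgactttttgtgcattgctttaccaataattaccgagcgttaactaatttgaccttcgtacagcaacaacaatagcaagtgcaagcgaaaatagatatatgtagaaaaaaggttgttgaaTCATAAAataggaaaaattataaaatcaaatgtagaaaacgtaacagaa
Antp-only, intron of Cerk, chr3R:5362502-5362701: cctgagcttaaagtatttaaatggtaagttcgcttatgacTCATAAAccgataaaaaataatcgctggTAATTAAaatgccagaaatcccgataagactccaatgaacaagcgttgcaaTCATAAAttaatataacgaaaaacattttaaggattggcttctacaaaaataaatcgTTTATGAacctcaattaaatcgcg
Antp-only, near the start of ash1, chr3L:19598799-19598998: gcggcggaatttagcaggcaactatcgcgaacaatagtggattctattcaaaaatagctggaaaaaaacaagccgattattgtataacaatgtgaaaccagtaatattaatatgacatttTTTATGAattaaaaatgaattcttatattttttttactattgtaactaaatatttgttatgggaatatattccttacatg
A match in these windows is a description and not a bound site. None of the 3 shared windows holds HoxA, and neither does the firm Scr-only window in CG8034, which holds 1 match to HoxB and 1 to Exd-Hox. The firm Scr-only windows near RhoL and in CG31689 hold 2 and 3 matches to HoxA, those of CG31689 overlapping in part. The Antp-only window in Cerk holds 1 match to HoxA and 3 to HoxB, and those in gpp and near ash1 hold 1 match to HoxB each.

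The Antp set lay almost entirely inside the Scr set. Of the 3507 Antp regions, 3360 (95.8%, 95.1 to 96.4) overlapped a Scr region and 147 (4.19%, 3.58 to 4.91) did not. Of the 7338 Scr regions, 3027 (41.3%, 40.1 to 42.4) overlapped an Antp region and 4311 (58.7%, 57.6 to 59.9) did not. Merging both lists gave 7470 regions, of which 3012 (40.3%) held both proteins. The nesting was also seen in base pairs. Scr covered 5640 kb and Antp 1942 kb, and 95.9% of the Antp base pairs fell in Scr regions, against 33.0% of the Scr base pairs in Antp regions, with a Jaccard index of 0.33. Of the shared Antp regions, 2801 (83.4%) lay wholly inside a Scr region, and 300 Scr regions held 2 or more Antp regions, up to 4. By 200 bp centre windows in place of whole regions the overlap was smaller, with 2271 of 3507 Antp regions (64.8%) and of 7338 Scr regions (30.9%) shared and 1236 Antp-only regions, so the 147 Antp-only regions are those that no Scr region touches at all. In the 2701 cases where 1 Scr region met 1 Antp region, the centres were a median of 60 bp apart, and the Scr region was the wider in 2560 (94.8%), with median widths of 792 bp and 469 bp. Lying inside a larger list was not particular to Scr. The list of the Hox protein Abd-B met 99.3% of the shared Antp and 82.3% of the Antp-only regions, and that of Dfd 96.2% and 44.9%. The smaller Lab list met 57.4% and 27.9%.

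**Figure D1:**
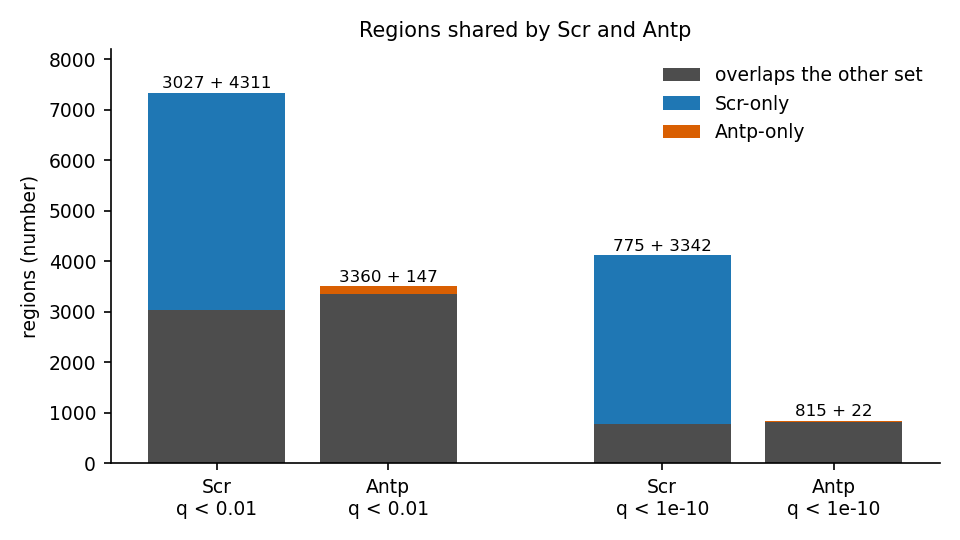
Number of regions (vertical axis) in the Scr and Antp lists at q 0.01 and q 1e-10. Grey is the part that overlaps the other list at the same threshold, blue is Scr-only and orange is Antp-only. The 147 Antp-only regions at q 0.01 and 22 at q 1e-10 are a thin cap on the Antp bars, while 4311 and 3342 Scr regions lack an Antp region.

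The 2 lists lost regions at very different rates when the threshold was raised. At q 1e-10 there were 4117 Scr and 837 Antp regions. Of these, 815 Antp regions (97.4%) overlapped Scr, but only 775 Scr regions (18.8%, 17.7 to 20.05) overlapped Antp, which leaves 3342 Scr-only and 22 Antp-only regions at that threshold. Most of the Scr-only regions at q 1e-10 were not empty of Antp. Of the 3342, 1870 (55.95%, 54.3 to 57.6) met an Antp region at q 0.01, and of the 22 Antp-only regions, 19 met a Scr region at q 0.01. Setting the strict Scr list against the full Antp list, 2645 of 4117 Scr regions (64.2%, 62.8 to 65.7) overlapped Antp and 1472 (35.8%, 34.3 to 37.2) were firm Scr-only. In the opposite direction, 834 of the 837 strict Antp regions (99.6%) overlapped a Scr region, and 3 did not. With the strict Antp list against the full Scr list, 773 of 7338 Scr regions (10.5%) overlapped. The share of Scr regions held in common with Antp thus ran from 10.5% to 64.2% depending on the pair of thresholds, while the Antp share stayed at 95.8% or above wherever the full Scr list was used or both lists were strict.

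Shared regions passed the stricter threshold more often than regions of a single protein. Among Scr regions, 80.5% (79.1 to 81.9) of the shared and 28.6% (27.3 to 29.99) of the Scr-only regions overlapped a region of the strict Scr list. Among Antp regions, 23.8% (22.4 to 25.3) of the shared and 2.04% (0.70 to 5.83) of the Antp-only regions, 3 of 147, overlapped one of the strict Antp list. Most unshared regions had no region of the other protein nearby. The nearest Antp region lay a median of 6102 bp from a Scr-only region, and 18.3% of Scr-only regions had one within 1 kb. For Antp-only regions the nearest Scr region lay a median of 2724 bp away, and 41 (27.9%) had one within 1 kb.

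Shared regions were wider than regions of a single protein. The median width of shared Scr regions was 852 bp (829 to 875, a 95% interval of the median), against 493 bp (485 to 501) for Scr-only and 437 bp (428 to 449) for firm Scr-only regions. Shared Antp regions had a median of 474.5 bp and Antp-only regions one of 315 bp (292 to 358). Regions over 1000 bp made up 39.6% of the shared Scr regions, 9.23% of the Scr-only regions and 0.68% of the Antp-only regions, a single one. Width and class are not independent, because a wider region has more room to overlap. With the Scr regions in 5 groups of nearly equal number by width, the share meeting Antp was 14.1% in the narrowest (244 to 397 bp) and 75.9% in the widest (1044 to 5756 bp), with 26.9%, 36.8% and 52.8% in between.

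**Figure D2:**
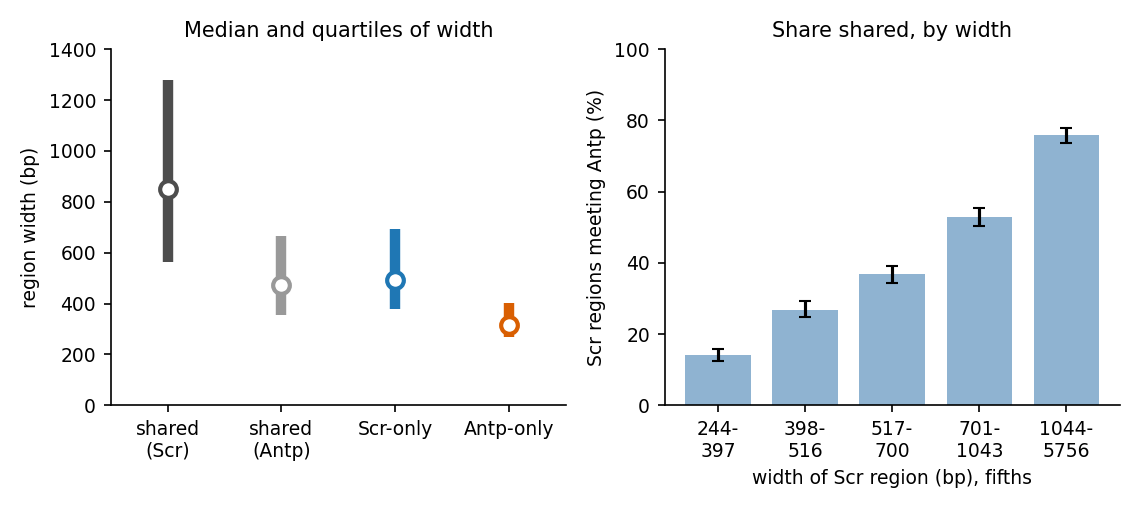
Left, region width in bp (vertical axis) for each class, with the median as an open circle and the quartiles as a bar. Shared regions have a median of 852 bp measured on the Scr list and 474.5 bp on the Antp list, against 493 bp for Scr-only and 315 bp for Antp-only. Right, percent of Scr regions that meet an Antp region in each of 5 groups by Scr width, with 95% Wilson intervals, from 14.1% to 75.9%.

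The longest region of each class shows the range. The longest region shared at q 1e-10 was 3766 bp in an intron of kirre, a cell adhesion gene of myoblast fusion (chrX:3057301-3061066), and another of the 3 longest was 3401 bp in an intron of CG10543. Both met each of the other 6 Hox sets and the sets of Scr+Hth, Antp+Hth and Hth. The longest firm Scr-only regions were 1839 bp in an intron of CG8034 (chrX:19290596-19292434), 1546 bp between genes at 712 bp from the start of RhoL (chr3R:9502520-9504065), and 1521 bp in an intron of CG31689 (chr2L:2733734-2735254). They met 6, 5 and 3 of the other Hox sets, so the first lacked only Antp among the sets without Hth, and it was listed for Antp+Hth.

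The longest Antp-only region was 1968 bp, centred on a coding exon of v, the tryptophan dioxygenase gene vermilion (chrX:10923693-10925660). It was 1 of the 3 Antp-only regions on the strict list, and was also listed for Ubx, Abd-A, Abd-B and Antp+Hth but not for Scr+Hth, Lab, Pb or Dfd. The next were 782 bp in the 3' UTR of corto, a chromatin protein gene (chr3R:5079558-5080339), and 754 bp in an intron of gpp, a histone methyltransferase gene (chr3R:6433200-6433953), both of which were also listed for Scr+Hth.

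Both proteins were found close to transcript starts. The centre of 50.6% (48.8 to 52.4) of shared, 45.5% (44.0 to 47.0) of Scr-only and 49.7% (41.7 to 57.6) of Antp-only regions lay within 500 bp of an annotated start, where 13.6% of all base pairs of the arms lie. The order of shared and Scr-only turned around at q 1e-10, where 32.9% (29.7 to 36.3) of shared and 43.1% of Scr-only regions were near a start. Firm Scr-only regions stood at 34.6% (32.2 to 37.0). The regions that both proteins held most firmly, and the firm Scr-only regions, thus lay more often away from starts than the full lists did, with median distances of 1269 bp and 1144 bp against 475 bp for shared and 674 bp for Scr-only regions.

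By the annotation at the centre, introns held 49.5% of shared, 51.03% of Scr-only and 62.8% of firm Scr-only regions, and 42.7% of all base pairs. Coding exons, which make up 17.1% of base pairs, held 2.35% of shared and 5.06% of Scr-only regions. The 5' UTR, 3.06% of base pairs, held 21.1% of shared, 19.8% of Scr-only and 17.7% of Antp-only regions. Sequence between genes makes up 30.5% of base pairs and held 66 of 147 Antp-only regions (44.9%, 37.1 to 52.97), against 22.9% (21.5 to 24.5) of shared Scr, 26.2% of shared Antp and 19.8% (18.6 to 21.0) of Scr-only regions. Introns held 31.3% (24.4 to 39.2) of Antp-only regions. The regions spread over the major arms nearly in proportion to length. The small arm 4, with 1.01% of base pairs, held 0.40% of shared and 0.42% of Scr-only regions and 0 of the 147 Antp-only regions, which allows a share of up to 2.04% by a limit of 3 counts and 2.55% by the Wilson interval.

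The other 6 Hox sets played no part in defining the classes, so sharing with them could be tested, with the sets as units. The sets differ in size, with 3829 regions for Lab, 5588 for Pb, 8448 for Dfd, 3725 for Ubx, 5467 for Abd-A and 9776 for Abd-B, and a larger set meets more regions of any class. Regions shared by Scr and Antp were bound more often by every other Hox protein than regions of Scr alone. Lab, the most anterior Hox protein, met 59.7% of shared and 16.8% of Scr-only regions. Pb, the proboscis determinant, met 74.5% and 32.1%. Dfd, which specifies the maxillary and mandibular segments, met 96.1% and 74.6%. Among the posterior proteins, Ubx met 79.9% and 15.5%, Abd-A 89.8% and 46.9%, and Abd-B 99.3% and 83.0%. Averaged over the sets, shared regions were higher by 38.4 percentage points (SD 17.4, n = 6 sets, positive in 6 of 6, exact two-sided sign-flip permutation p = 0.03125, the smallest 6 sets can give, 0.046875 after Benjamini-Hochberg adjustment over 3 comparisons). These 6 sets share a cell line and a protocol and are not replicates. The p records only that all 6 differences had the same direction. Their sizes ran from 16.3 points for Abd-B to 64.5 points for Ubx. The study also lists the same input reads for Abd-A and Abd-B. Shared regions were more often on the strict lists, 80.5% against 28.6% for Scr and 23.8% against 2.04% for Antp. Firmer regions may meet any list more often, so a difference in 1 direction could be foreseen. How much of it follows from this was not tested. The difference was also present within groups by Scr width, though the widest group still spans 1044 to 5756 bp. Within each of the 5 groups, shared regions exceeded Scr-only regions for 6 of 6 sets. The excess was 25.9 points in the narrowest group, 26.9 in the widest and up to 32.6 in between. Each group gave an exact permutation p of 0.03125 before adjustment, again the smallest 6 sets can give. This split was chosen after seeing the data and uses the same 6 sets again. The lists hold no heights, so regions of 1 width group can still differ in width and in strength.

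**Figure D3:**
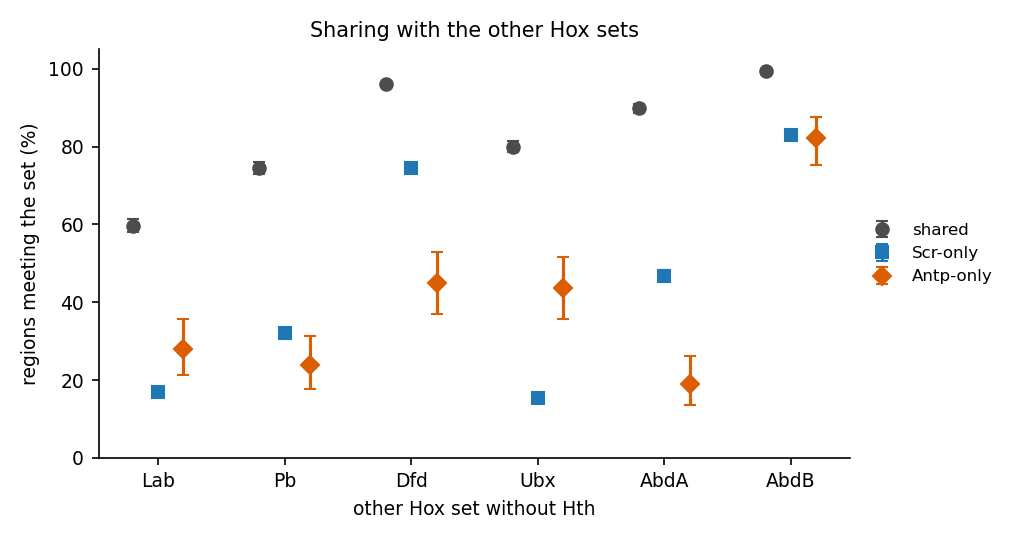
Percent of regions of each class (vertical axis) that meet the set of each other Hox protein without Hth (horizontal axis), with 95% Wilson intervals. Grey circles are the 3027 shared Scr regions, blue squares the 4311 Scr-only and orange diamonds the 147 Antp-only regions. Shared regions are the highest for every protein, and Antp-only regions lie above Scr-only regions for Lab and Ubx and below them for Dfd and Abd-A.

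Antp-only regions shared less with the other proteins than shared regions did, but not uniformly less than Scr-only regions. Measured on the Antp list, shared regions exceeded Antp-only regions by a mean of 42.2 points (SD 19.1, positive in 6 of 6, exact permutation p = 0.03125, adjusted 0.046875). Antp-only regions met Ubx in 43.5% (35.8 to 51.6) of cases and Lab in 27.9% (21.3 to 35.6), above the 15.5% and 16.8% of Scr-only regions. They met Dfd in 44.9% (37.1 to 52.97) and Abd-A in 19.0% (13.5 to 26.2), below the 74.6% and 46.9% of Scr-only regions, and Abd-B in 82.3%, which differed from 83.0% by less than its interval. The mean difference of Antp-only minus Scr-only was -4.55 points (SD 22.4, positive in 2 of 6 sets, exact permutation p = 0.6875, adjusted 0.6875), within the spread over the sets, and its sign turned without Dfd (0.48 points) or without Abd-A (0.10 points). The study lists Ubx, Abd-A and Abd-B on another sequencing platform than Scr, Antp, Lab, Pb and Dfd. Within Lab, Pb and Dfd the 3 mean differences, in the order given, were 35.6, 43.6 and -8.96 points, and within Ubx, Abd-A and Abd-B they were 41.2, 40.9 and -0.14 points. With 3 sets each, no exact p below 0.25 is possible within a platform.

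The typical shared region was a region of nearly all Hox proteins. Shared regions met a median of 5 of the other 6 sets, and 1337 (44.2%, 42.4 to 45.9) met all 6. Scr-only regions met a median of 3, and 59 (1.37%) met all 6. Antp-only regions met a median of 2, and 0 of 147 met all 6, to which the same limits apply. Regions that met none of the other 6 sets numbered 1 among the shared, 253 (5.87%) among the Scr-only and 10 (6.803%) among the Antp-only regions. The most frequent combinations of sets at Scr-only regions, in which the largest sets, Abd-B and Dfd, recur, were Dfd, Abd-A and Abd-B together (673 regions, 15.6%), Dfd with Abd-B (628) and Abd-B alone (402). For Antp-only regions they were Ubx with Abd-B (21 regions, 14.3%), Abd-B alone (20) and Lab, Pb, Dfd and Abd-B together (19). Firm Scr-only regions stood between the classes, meeting Dfd in 89.5%, Abd-B in 90.9%, Abd-A in 66.3%, Pb in 51.8%, Lab in 27.0% and Ubx in 24.3%.

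**Figure D4:**
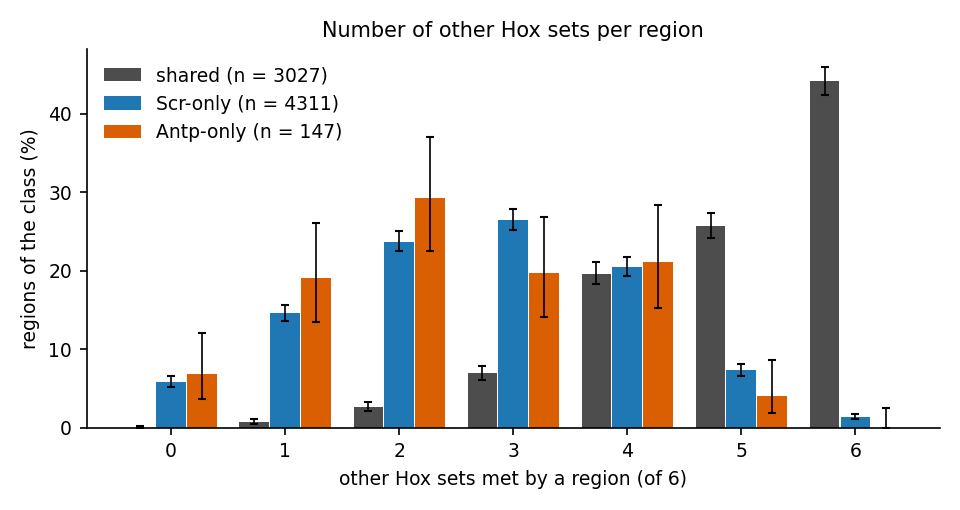
Percent of the regions of each class (vertical axis) by the number of other Hox sets without Hth that they meet, from 0 to 6 (horizontal axis), with 95% Wilson intervals. Shared regions pile up at 6, with 44.2%, and Scr-only and Antp-only regions peak at 3 and 2.

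The lists made with Hth also differ in size, with 6598 regions for Scr+Hth and 2880 for Antp+Hth, which bears on how often each can meet a region. Of the Scr-only regions, 76.8% (75.5 to 78.0) met a Scr+Hth region and 14.3% (13.3 to 15.4) an Antp+Hth region. Among firm Scr-only regions these shares were 97.8% and 23.8%, so nearly all were again listed for Scr. Of the Antp-only regions, 23.8% (17.6 to 31.3) met an Antp+Hth region and 21.8% (15.9 to 29.1) a Scr+Hth region. Shared regions met Scr+Hth in 94.4% and Antp+Hth in 58.1% of cases. Regions of Hth expressed alone met 74.6% of shared, 37.0% of Scr-only and 28.6% of Antp-only regions.

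HoxA was more frequent at the centres of Scr-only regions than at those of shared regions. It was present in 15.9% (14.8 to 17.0) of the 200 bp centre windows of Scr-only regions, against 9.61% of flanking windows 1000 bp away that met no region of any list, a ratio of 1.65. In firm Scr-only regions it was present in 19.6% (17.6 to 21.7), against 8.76% of the flanks, a ratio of 2.23. In shared Scr regions it was present in 11.3% (10.2 to 12.5), against 9.70% of the flanks and 12.3% of all windows. The gap was smaller with both lists at q 1e-10, where HoxA was present in 12.39% (10.25 to 14.89) of shared windows. Among Scr-only windows at that threshold the share was 14.87%, which lies within the interval of the shared windows. Antp-only regions held it in 20 of 147 windows (13.6%, 9.0 to 20.1), an interval that includes the share of every other class and of all windows. The order of the classes depended on the window, since over whole regions 44.2% of shared and 34.3% of Scr-only regions held HoxA, which moves with their widths.

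The other Hox words did not separate shared from Scr-only regions. HoxB was present in 24.2% of both classes, and in 29.3% (22.5 to 37.1) of Antp-only windows. Exd-Hox was present in 4.33% of shared, 4.29% of Scr-only and 7.48% of Antp-only windows. The GAGA word GAGAGAG, which the GAGA factor binds at many open promoters, was present in 10.4% (9.37 to 11.5) of shared and 7.63% (6.88 to 8.46) of Scr-only windows and in 4 of 147 (2.72%, 1.06 to 6.79) Antp-only windows, with 2.43% over all windows. In shared Antp windows it was present in 12.3%. In the flanks the shares were 2.29% for shared, 2.22% for Scr-only and 0.53% for Antp-only regions, so the centre of Antp-only regions was near the share of all windows and above that of its own flanks, where 1 of 188 windows matched. Antp-only centres were poorer in G and C, at 41.0% against 43.4% to 44.6% in shared and Scr-only regions. Among all words of 6 bases, CAATTA (28.9% of firm Scr-only and 20.1% of shared windows at q 1e-10) and TAATGA (21.6% and 13.7%) were the most in excess in firm Scr-only regions, and CCCCTC (8.02% and 15.0%) the most in deficit. These words were picked for their difference and are given without a test.

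**Figure D5:**
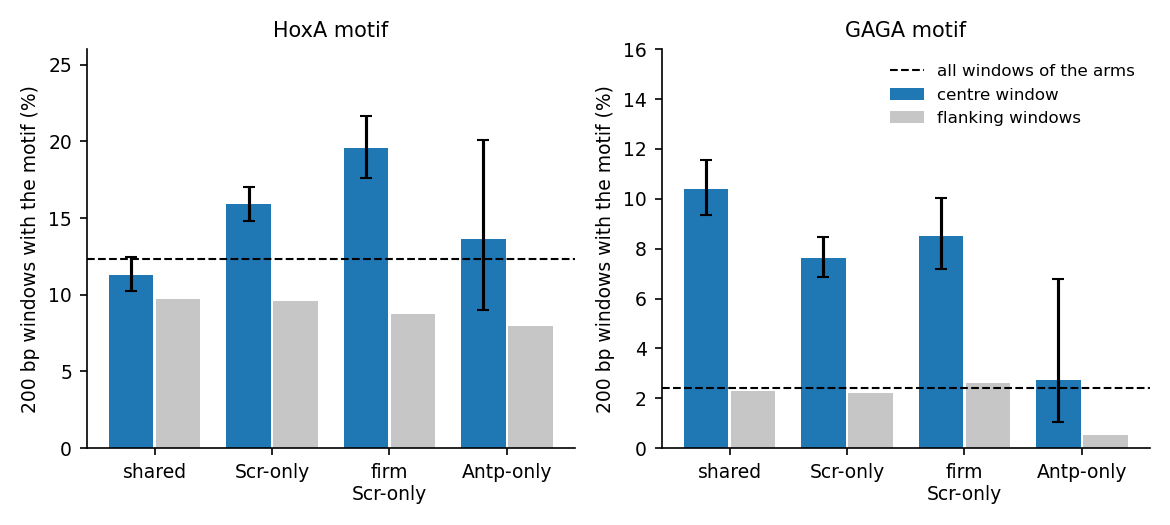
Percent of 200 bp windows (vertical axes) with a HoxA match (left) or a GAGA match (right), for centre windows (blue, with 95% Wilson intervals) and flanking windows (grey) of each class. The dashed line is the share of all windows of the arms, 12.3% for HoxA and 2.43% for GAGA. HoxA is highest in firm Scr-only windows (19.6%), and GAGA is near the dashed line only in Antp-only windows (2.72%).

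At the level of genes, a gene was counted as bound when a region touched its body or the 1 kb on either side. Of the 13945 protein-coding genes, 39.5% had a Scr region, 21.5% an Antp region, 18.7% (2614 genes) a Scr region and no Antp region, and 0.703% (98 genes) an Antp region and no Scr region. Scr-only regions were found at 27.3% of these genes, shared regions at 21.1% and Antp-only regions at 1.46%, and the strict lists reached 20.8% for Scr and 4.83% for Antp. With the strict Scr list against the full Antp list, 659 genes had Scr and no Antp, and 759 had Antp and no Scr. Longer genes have more room for regions, and the median length was 2.17 kb over all these genes, 2.67 kb for those with Scr and no Antp and 4.87 kb for those with Antp. Counts over the lists below should be read against these shares and lengths, and binding near a gene is not its regulation.

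In the Hox complexes every gene with an Antp region also had a Scr region, as nearly all such genes of the genome did. Over all protein-coding genes, 21.5% had an Antp region and 0.703% had one without a Scr region. Of 11 genes, 7 had a Scr region and 6 an Antp region, with a median gene length of 22.8 kb. Dfd had 4 Scr and 4 Antp regions, 1 of the Scr regions being Scr-only. Abd-B had 2 Scr regions that met 3 Antp regions, and pb, Scr, Ubx and bcd, the anterior maternal morphogen gene, had 1 region of each protein, shared. The Antp gene had 2 Scr-only regions, 1 of them firm, and 0 Antp regions. Plasmid exons of Antp had been removed from the list by the authors, and what this took away at the gene was not tested. Neither Scr region lay over an exon of Antp. The genes lab, abd-A, ftz and zen had none of either. Of the cofactor genes, hth had 6 Scr regions, 2 of them Scr-only, and 5 Antp regions, all shared, and exd had none.

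Genes that act with Scr in the salivary gland and the foreleg were bound at 6 of 12, and the same 6 had an Antp region. The median gene length of this list was 18.65 kb. Over all protein-coding genes, 39.5% had a Scr region and 18.7% had one without an Antp region. At bab1, a BTB transcription factor gene of leg and abdomen patterning, 13 regions were listed for each protein, of which 11 Scr regions were shared and 1 Antp region was Antp-only. Its neighbour bab2 had 5 Scr and 3 Antp regions. CrebA, a regulator of secretory genes in the salivary gland, had 5 Scr and 4 Antp regions, and dsx, the sex determination gene required for the sex comb, had 4 and 3. Both eyg and dac had 1 shared region. The salivary gland genes fkh, trh, sage and hkb had no region of either protein, nor had toe and Dll.

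Genes with which Antp is connected in the suppression of antenna and eye fate were bound by Scr at 6 of 12 and by Antp at 5. At ct, a homeodomain gene of the antenna and external sense organs, 6 Scr regions were listed, 4 of them Scr-only, and 2 Antp regions. The eye gene eya had 1 Scr-only region and no Antp region. The genes salm, ey and tsh had 1 shared region each, and tio had 2. None was listed at ss, salr, toy, so, dan or danr. No gene of this list was bound by Antp alone, which says little, since only 0.703% of all protein-coding genes were. The median gene length of the list was 15.1 kb.

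The ecdysone response list had the most regions, with 11 of 11 genes having a Scr region and 10 an Antp region, 83 and 53 regions in all. These are long genes, with a median of 60.7 kb. Eip75B, a nuclear receptor gene induced early by ecdysone, had 29 Scr regions, 17 of them Scr-only, and 13 Antp regions. EcR, the ecdysone receptor gene, had 13 and 8, and Eip74EF, an ETS factor gene, had 13 and 9. At Hr3, which lacked Antp, 3 Scr-only regions were listed. The haemocyte and matrix list had 11 of 14 genes with Scr and 10 with Antp. There ush, a partner of GATA factors, had 19 Scr regions, 9 of them Scr-only and 8 firm, and 13 Antp regions, srp, the haemocyte GATA factor gene, had 8 and 6, and vkg, a type IV collagen gene, had 8 and 3.

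In the JNK and AP-1 list 9 of 10 genes had a Scr region and 7 an Antp region. The phosphatase gene puc had 11 Scr and 10 Antp regions and kay, the Fos gene, had 10 and 9, while Mmp1, a matrix metalloproteinase gene, had 4 and 1. In the Notch list 9 of 14 had a Scr region and 7 an Antp region. N, the receptor gene, had 7 and 3, and the ubiquitin ligase gene neur had 4 Scr regions, all Scr-only. Ser, a gene for a Notch ligand and the first in list order of several with 2 Scr regions, had 1 Antp region. In the segmentation list 10 of 19 had a Scr region and 6 an Antp region, with ptc, the Hedgehog receptor gene, at 4 and 3, hh at 3 and 2 and the pair-rule gene hry at 2 and 2. Of 6 cell death genes, 3 had Scr and 2 had Antp, led by the caspase inhibitor gene Diap1 with 5 Scr and 6 Antp regions, and hid, a pro-apoptotic gene, had 2 Scr-only regions. The caspase gene Dronc had 1 shared region. Neuronal genes were bound least, with 3 of 14 for Scr and 1 for Antp, a list with a median length of 25.6 kb. There elav had 2 Scr regions and 1 Antp region, and Syt1 and Appl had 1 Scr-only region each.

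The ribosomal protein list included genes with Antp and no Scr. Of 15 genes, 10 had a Scr region and 6 an Antp region, and RpL5 had an Antp-only region and no Scr region, 1 of the 98 such genes in the genome. RpL8, RpS6 and RpS12 had 2 Scr regions each, of which 1, 2 and 2 were Scr-only. The gene with most Scr-only regions was bun, a TSC22 family gene, with 20 of its 32 Scr regions. Next came Eip75B with 17 of 29, kirre with 15 of 25 and Svil, a supervillin gene, with 13 of 20. Mob2, a kinase activator gene, had 11 of 14, and Pdp1, Samuel and shot also had 11 Scr-only regions. From bun to Mob2 these genes are 91.1, 113.7, 394.1, 121.6 and 39.5 kb long, against a median of 2.17 kb over all protein-coding genes. The gene with most shared regions was pnt, an ETS factor gene of EGF receptor signalling, with 16 of 21. Tlk, a chromatin-linked kinase gene, followed with 13 of 18, then Eip75B and bun with 12 each, and bab1 with 11 of 13. Thus bun and Eip75B were high in both, and pnt had 20 Antp regions against 16 at bun.

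The 10 Antp-only regions outside every other Hox list without Hth are the least shared Antp sites. None of the 10 was on the strict Antp list, and none recurred in Antp+Hth or Scr+Hth, while 3 were listed for Hth alone and 3 for Exd+Hth. Of the 3 longest, 1 was 472 bp in a coding exon of CG3281 (chr3R:11961056-11961527), and another was 468 bp in an intron of grh, an epithelial transcription factor gene.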

How the data were processed

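Binding was measured by ChIP-seq in 4 libraries of Scr and Antp, 2 a group, each group with 1 input, among 54 samples of the series. The authors mapped reads to dm6 using Bowtie 1.2.2 (reads with 1 match only) and called peaks for each library against its input using MACS2 2.1.1.20160309, once at q 0.01 and once at q 1e-10. They dropped regions over exons carried on plasmids and united regions that both libraries of a group supported, so the weaker library of a pair limits each list. The deposited score is 0 for every region, and no region has a height.

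Groups came from the sample labels. Genes and their starts came from Ensembl 115 (BDGP6.54) on 6 arms (13945 protein-coding genes), and all 140 list entries were matched, 2 under another name. Windows of 200 bp at region centres were searched on both strands, and flanks 1000 bp away that met no region of any list served as reference. Sharing was tested by exact sign-flip permutation over 64 sign patterns, with 0.05 as the threshold and Benjamini-Hochberg adjustment over 3 comparisons. The members, the gene lists and the naming rules were chosen with earlier results of these data known. Named were all genes of the Hox complex, cofactor, Scr and Antp lists, the 3 members of each other list with most Scr regions, the 5 genes with most Scr-only and with most shared regions, and the 3 longest regions of each class. Hr3 and RpL5 were named besides after their values were seen. Some items under the rule are left out of the text. The functions recovered all planted values on simulated data. Scripts ran under Python 3.11.15 with numpy 2.4.6, with scipy 1.17.1 and with matplotlib 3.10.9. Chromatin accessibility was not analysed here.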

Additional observations from a re-analysis of the deposited data

How the results depend on the processing

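No paired analysis was possible because each deposited list combines both replicates. The share of Antp regions shared was 97.4% with both lists at q 1e-10, 77.6% with Scr alone at q 1e-10, 99.6% with Antp alone at q 1e-10 and 64.8% for 200 bp centre windows, against 95.8%. The share of Scr regions shared was 18.8%, 64.2%, 10.5% and 30.9% in that order, against 41.3%. An overlap of 50% of the smaller region, or leaving out regions over the plasmid genes, moved neither beyond its interval. Median widths of shared and Scr-only regions were 788 and 480 bp at q 1e-10, and 704, 543 and, for Antp-only regions, 470.5 bp by centre windows. Shares near a start, for shared, Scr-only and Antp-only regions, were 61.7%, 57.0% and 59.2% within 1000 bp and 32.9%, 43.1% and 59.1% at q 1e-10 (22 Antp-only regions), and 46.7% and 42.3% for the first 2 with protein-coding starts. HoxA shares were 44.2%, 34.3% and 21.8% in whole regions, 5.75%, 8.56% and 6.803% in 100 bp windows, and 27.3% for Antp-only regions at q 1e-10 (6 of 22). Genes with Scr and no Antp region numbered 659 with Scr at q 1e-10 and Antp at q 0.01, where 759 had Antp and no Scr, against 2614.

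Both sharing differences of shared regions kept direction and call at q 1e-10, with the 50% overlap, with centre windows and with the 6 sets made with Hth. Leaving out each protein gave 33.2 to 42.8 points for shared minus Scr-only and 36.5 to 47.3 for shared minus Antp-only, each with an exact permutation p of 0.0625, the smallest that 5 sets allow, so the lost call follows from the number of sets. Antp-only minus Scr-only ran from -11.1 to 0.48 points, and its sign turned without Dfd (0.48) and without Abd-A (0.10). Without replicate lists or heights, a difference in binding cannot be told apart from one in enrichment, and only 147 regions limit every Antp-only share.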
